A study of Mus musculus with 8 samples.

Results

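The genes of MHC class I antigen presentation examined here were H2-K1, H2-D1, B2m, Tap1, Tap2, Tapbp, Psmb8, Psmb9, Psmb10 and Nlrc5, which were chosen by name and are 10 of the 54232 gene IDs in the counts. All 10 were found, and all 10 passed the filter on low counts with 14062 genes in all. They were followed in splenic NK cells and splenic CD8+ T cells, with 3 RNA-seq libraries per cell type. The mice carried a Tyk2 knockout (Tyk2-/-) on C57BL/6, given as C57BL/6N in the methods of the study, and were aged 8 to 12 weeks and kept under homeostatic conditions. The groups share labelled genotype, age, organ and the lack of treatment. They differ in cell type and in replicate numbers, which are 5 to 7 for NK cells and 2 to 4 for CD8+ T cells. Cell type thus cannot be told apart from other differences between these sets of replicates. TYK2 is a Janus kinase that carries signals from type I interferon and interleukin receptors, and every library used here is labelled as a knockout of its gene. Each library came from cells sorted by FACS from 3 pooled spleens, NK cells being taken as NK1.1+. The methods of the study name more than a single line of Tyk2-/- mice, among them a line carrying a CMV-cre transgene. Which line gave which library is not given in the sources used here, so a difference in line could not be told apart from one in cell type. The wild-type CD8+ T cell libraries were not analysed here, so nothing below measures an effect of Tyk2 loss on these genes.

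MHC class I molecules show peptides from inside the cell to CD8+ T cells. The proteasome cuts proteins into peptides, the TAP transporter moves these into the endoplasmic reticulum, tapasin holds empty class I molecules next to TAP, and the heavy chain pairs with beta-2 microglobulin before it travels to the surface. NK cells read the same molecules from the other side, since inhibitory receptors on NK cells bind class I and hold back killing of cells that carry it. Interferons raise most of these genes in many cell types, and NLRC5 is the coactivator that drives class I genes in lymphocytes.

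The stretch before each gene start shows how alike the heavy chain genes are and where they part from B2m and Tap1. RefSeq windows of GRCm38.p6, from 250 bases before to 50 bases after the gene start and 300 bases long, were given for 8 of the 10 genes, and Tap2 and Nlrc5 were not matched. These RefSeq starts can differ from the gene spans given below, which are those of GENCODE M21. For H2-D1, Tapbp and Psmb8 (RefSeq starts 35263094, 33919478 and 34198195) the whole window lies inside the GENCODE span of the gene. The windows of both classical heavy chains, of the non-classical H2-Q7, of B2m and of Tap1 are printed 5′ to 3′ on the gene's own strand. Capitals mark matches on either strand to the motifs searched, which were the kappaB core GGGGATTCC, the interferon element core AAGTGAAA, the ISRE core GAAANNGAA, the X2 core TGACG and the CCAAT box CCAAT.
H2-K1, chr17:34000298-34000597, minus strand: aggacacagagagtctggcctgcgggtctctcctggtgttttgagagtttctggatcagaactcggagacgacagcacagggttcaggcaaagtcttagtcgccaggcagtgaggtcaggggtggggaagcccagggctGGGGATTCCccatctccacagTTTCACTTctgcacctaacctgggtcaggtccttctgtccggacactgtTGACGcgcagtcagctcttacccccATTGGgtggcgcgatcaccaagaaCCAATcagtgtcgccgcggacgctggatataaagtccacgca
H2-D1, chr17:35262844-35263143, plus strand: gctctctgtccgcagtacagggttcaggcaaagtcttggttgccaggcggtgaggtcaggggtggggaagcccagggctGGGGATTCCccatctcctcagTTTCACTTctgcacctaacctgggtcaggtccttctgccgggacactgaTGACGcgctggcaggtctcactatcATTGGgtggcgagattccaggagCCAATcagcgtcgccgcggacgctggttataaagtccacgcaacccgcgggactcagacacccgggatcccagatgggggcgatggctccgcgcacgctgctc
H2-Q7, chr17:35438905-35439204, plus strand: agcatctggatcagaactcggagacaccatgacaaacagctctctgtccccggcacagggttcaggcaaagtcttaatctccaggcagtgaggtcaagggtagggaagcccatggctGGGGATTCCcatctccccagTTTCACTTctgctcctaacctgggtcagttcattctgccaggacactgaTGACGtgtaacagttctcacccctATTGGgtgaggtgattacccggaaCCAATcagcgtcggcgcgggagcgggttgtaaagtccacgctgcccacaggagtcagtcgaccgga
B2m, chr2:122147437-122147736, plus strand: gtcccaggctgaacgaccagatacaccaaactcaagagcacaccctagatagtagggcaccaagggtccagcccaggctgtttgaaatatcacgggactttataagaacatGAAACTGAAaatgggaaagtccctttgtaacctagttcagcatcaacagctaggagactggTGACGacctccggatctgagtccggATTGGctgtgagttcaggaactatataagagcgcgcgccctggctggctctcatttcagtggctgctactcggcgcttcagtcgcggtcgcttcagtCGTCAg
Tap1, chr17:34187306-34187605, plus strand: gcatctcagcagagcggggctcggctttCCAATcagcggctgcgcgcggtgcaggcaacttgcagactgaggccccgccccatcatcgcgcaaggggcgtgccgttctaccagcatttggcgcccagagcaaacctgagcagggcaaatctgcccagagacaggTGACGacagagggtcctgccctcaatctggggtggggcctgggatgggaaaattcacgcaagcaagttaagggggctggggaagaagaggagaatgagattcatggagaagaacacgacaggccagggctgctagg
No match overlapped another in these windows. H2-K1, H2-D1 and H2-Q7 carry the kappaB core, the interferon core, the X2 core and a pair of CCAAT boxes in the same order, and where the windows of H2-K1 and H2-D1 align, 206 of 228 columns (90.4%) are identical. H2-Q7 aligned with H2-K1 at 192 of 225 columns (85.3%) and with H2-D1 at 218 of 263 (82.9%). The kappaB core occurs in 0.25% of all 32851 windows and the interferon core in 1.6%, and among the 8 genes with a window both were found in H2-K1 and H2-D1 only. B2m has the ISRE core, which 8.56% of all windows hold, at -139 to -131 from its start, followed by an X2 core and a CCAAT box. The X2 core is in 20.8% of all windows and in 5 of the 8, and the CCAAT box in 37.4% of all windows and in 6 of the 8. Tap1 and Psmb9 are read in opposite directions from RefSeq starts 226 bases apart, so the Tap1 window also holds the RefSeq start of Psmb9. These matches describe letters only.

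In GRCm38, 7 of the 10 genes lie within the MHC on chromosome 17, and the order there is Tapbp, H2-K1, Psmb9, Tap1, Psmb8, Tap2 and H2-D1. Psmb9, Tap1, Psmb8 and Tap2 lie side by side between positions 34181987 and 34216321. Tapbp spans 33915899 to 33929292, H2-K1 spans 33996017 to 34000347 and H2-D1 spans 35262730 to 35267499. B2m is on chromosome 2 from 122147686 to 122153083, and chromosome 8 holds Nlrc5 from 94434356 to 94527272 and Psmb10 from 105935735 to 105938444. Counts are of uniquely aligned 50-base reads, so stretches that are shared between genes are undercounted. Of the 50-base windows along the transcripts, 7.89% were shared with another gene in H2-K1 and 14.3% in H2-D1, mostly with other H2 genes, and 0% in B2m, Psmb10 and Nlrc5. Tapbp shared 20.7% of its windows and has 682 exonic bases that overlap Gm19412. In GENCODE, Tap1 starts at 34187553 and Psmb9, on the minus strand, at 34187764, and they overlap each other over 212 exonic bases. The use of strand in counting is not given in the sources used here.

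Total counts on genes were 20957384 to 26144478 in CD8+ T cells against 32848432 to 38573550 in NK cells. For Tyk2, the targeted gene, raw counts were 105, 919 and 554 in CD8+ T cell libraries 1 to 3, and 3864, 4245 and 3207 in NK cell libraries 1 to 3. Reads on Tyk2 were present in every library, and counts per gene cannot tell which exons they came from, so they do not check the genotype. The cell type labels were borne out by defining markers: Cd8b1 had 60044 to 80266 raw counts in CD8+ T cells and 0 in each NK cell library, and Ncr1 had 137008 to 195219 in NK cells and 0 in each CD8+ T cell library. Some other markers went the same way but were not absent from the other cell type. Raw counts in CD8+ T cells against NK cells were 41758 to 59060 against 2978 to 8065 for Cd3d and 711 to 1009 against 227 to 509 for Cd3e. Nkg7 had 584775 to 741362 in NK cells against 84416 to 114491 in CD8+ T cells. Markers of other cells differed between the CD8+ T cell libraries. The summed level of 4 class II genes (H2-Aa, H2-Ab1, H2-Eb1 and Cd74) was 903, 27.7 and 325 CPM (counts scaled to the library total) in CD8+ T cell libraries 1 to 3 against 32.8 to 69.4 in NK cells, and that of 5 B cell markers was 351, 184 and 37.2 against 0.214 to 47.1, with Pax5 at 0 in the CD8+ T cell libraries. In a bulk sample, fewer cells of a type and less RNA per cell cannot be told apart.

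Each gene was compared between NK cells and CD8+ T cells on counts normalised by TMM, which assumes that most genes do not differ, and tested with edgeR's quasi-likelihood test and Benjamini-Hochberg adjustment over all 14062 genes. A gene was called at an adjusted p below 0.05. The scaling matters for this set. An alternative chosen after seeing the data took the total count as library size in place of TMM. Over the 13943 genes tested under both scalings, the log2 fold changes then moved down by a median of 0.35, from a median of 0.08 to -0.26. For the 10 genes values under both scalings are therefore given wherever the separation of the groups depends on it.

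Of the 10 genes, 1 was called, Tapbp, which was higher in CD8+ T cells. Over all genes 11.4% were called, 6.24% with NK cells above and 5.14% with CD8+ T cells above, so a count of 1 in 10 is close to the background. At an unadjusted p below 0.05 there were 4 of the 10 (H2-K1, B2m, Tapbp and Psmb10), against 30.7% of all genes. Normalised counts did not overlap between the cell types for 6 of the 10, against 41.6% of all genes. H2-K1, H2-D1 and Psmb10 were the 3 with NK cells above, against 25.5% of all genes, and B2m, Tapbp and Nlrc5 the 3 with CD8+ T cells above, against 16.1%. With total-count scaling 4 did not overlap, against 41.5% of all genes. CD8+ T cells were above for all 4 (B2m, Tapbp, Psmb8 and Nlrc5), against 20.2% of all genes, and NK cells were above for 0, against 21.4%. The median absolute log2 fold change of the 10 genes was 0.58, and that of all genes tested was 1.42. The p-values set the difference between cell types against the spread between these pooled libraries, not between single mice.

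**Figure D1:**
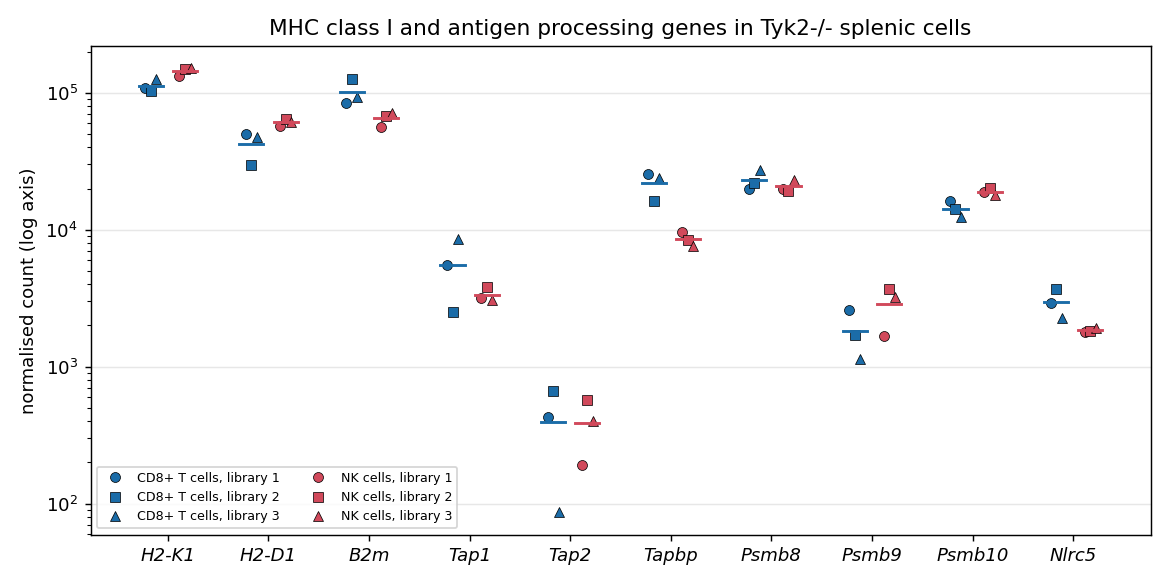
Normalised counts (log axis) of the 10 genes in each library, CD8+ T cells in blue and NK cells in red, with a marker shape for each library and a bar at the mean of 3 libraries. Tapbp, B2m and Nlrc5 sit higher in CD8+ T cells, H2-K1, H2-D1 and Psmb10 sit higher in NK cells on this scale, and Tap2 spreads over most of its range within each cell type.

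The classical heavy chains H2-K1 and H2-D1 form the peptide-binding part of class I. H2-K1 had 108740, 103192 and 126995 normalised counts in CD8+ T cell libraries 1 to 3 and 133272, 150133 and 151679 in NK cell libraries 1 to 3. No NK cell library fell below the highest CD8+ T cell library, but the gap was small (log2 fold change 0.36, SE 0.13, adjusted p = 0.125 from edgeR), and with total-count scaling the libraries overlapped and the log2 fold change was 0.01 (SE 0.13). H2-D1 had 50045, 29670 and 47850 normalised counts in CD8+ T cells against 57257, 65009 and 61148 in NK cells. Its libraries were also apart on this scale (0.52, SE 0.22, adjusted p = 0.163, edgeR) and overlapped with total-count scaling (0.17, SE 0.22). H2-D1 was lowest in CD8+ T cell library 2, where H2-K1 was lowest as well.

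B2m encodes beta-2 microglobulin, the light chain that every class I heavy chain needs. It had 84203, 125407 and 93893 normalised counts in CD8+ T cells against 56215, 67895 and 71845 in NK cells. All CD8+ T cell libraries were above all NK cell libraries under both scalings (log2 fold change -0.63, SE 0.19, adjusted p = 0.080, edgeR). With total-count scaling the difference was -0.98 (SE 0.18, adjusted p = 0.019, edgeR) and passed the threshold, while the adjusted p was 0.068 to 0.233 over the 9 other alternatives. B2m was highest in CD8+ T cell library 2.

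The ratio of heavy to light chain transcripts was then taken within each library, although none of H2-K1, H2-D1 and B2m was called with TMM scaling. RPKM, which are reads per kilobase of exon scaled to the library total, were used to compare levels between genes, and a ratio of RPKM within a library does not depend on library scaling. The summed level of H2-K1 and H2-D1 was 0.914, 0.524 and 0.911 times that of B2m in CD8+ T cell libraries 1 to 3 and 1.65, 1.54 and 1.45 times that of B2m in NK cell libraries 1 to 3. The ratios did not overlap, with means of 0.783 ± 0.224 (SD, n = 3) and 1.54 ± 0.102 (SD, n = 3). H2-K1 over H2-D1, by contrast, was 2.76 to 4.42 in CD8+ T cells against 2.93 to 3.15 in NK cells and overlapped. These ratios were chosen after the values were seen and were not tested. Among single genes 41.6% did not overlap, and no such share was taken for ratios.

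**Figure D2:**
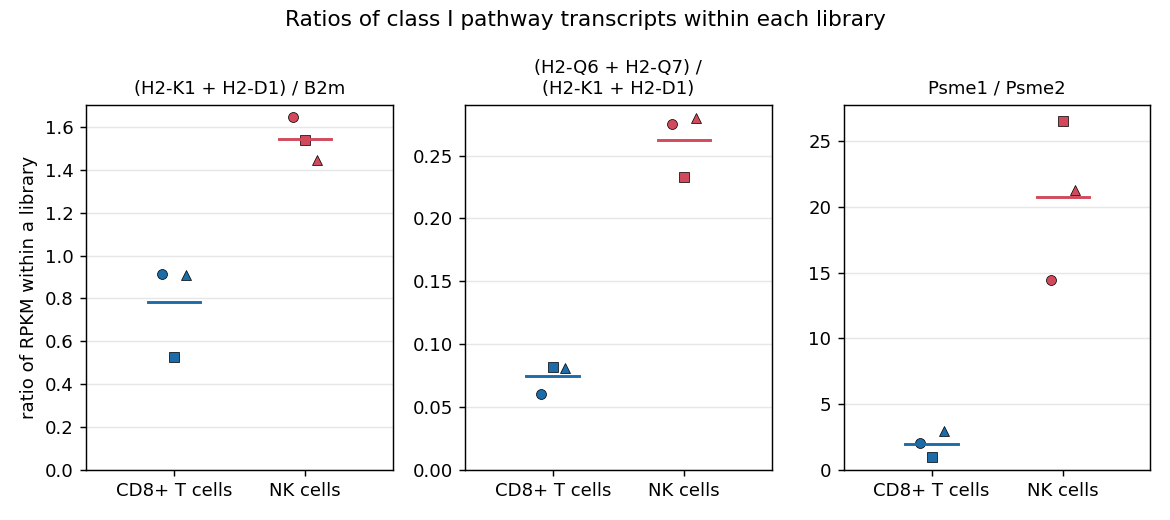
Ratios of RPKM within each library for CD8+ T cells (blue) and NK cells (red), with circles, squares and triangles for libraries 1, 2 and 3 and a bar at the mean, each panel on its own linear axis from 0. The 3 ratios shown are those without overlap among the ratios taken, and none was tested. In each the NK cell libraries lie above, for the heavy chains over B2m at 1.45 to 1.65 against 0.524 to 0.914. The ratios not shown overlapped, namely H2-K1 over H2-D1, Tap1 over Tap2, Tap1 over Psmb9 and Tapbp over Tap1.

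TAP1 and TAP2 form the transporter that carries peptides into the endoplasmic reticulum. Tap1 had 5577, 2503 and 8534 normalised counts in CD8+ T cells against 3200, 3817 and 3068 in NK cells. The NK cell libraries lay inside the range of the CD8+ T cell libraries, which differed from each other by 3.41 times (log2 fold change -0.72, SE 0.44, adjusted p = 0.306, edgeR). Tap2 had 427, 661 and 86.1 normalised counts in CD8+ T cells against 193, 569 and 398 in NK cells, so the groups overlapped throughout (-0.02, SE 0.95, adjusted p = 0.994, edgeR). CD8+ T cell library 3 had the highest Tap1 and the lowest Tap2, and Tap1 over Tap2 in RPKM was 15.2, 4.41 and 115 in CD8+ T cell libraries 1 to 3 against 7.82 to 19.4 in NK cells. The raw counts of Tap2 were 89 to 539 and 198 to 679, the lowest of the 10 genes, so its values rest on far fewer reads than those of the others.

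Tapbp encodes tapasin, which bridges empty class I molecules to TAP and helps them to take up peptide. It had 25499, 16334 and 23717 normalised counts in CD8+ T cells against 9685, 8413 and 7566 in NK cells. All CD8+ T cell libraries were above all NK cell libraries, by 2.55-fold in the fit (log2 fold change -1.35, SE 0.22, adjusted p = 0.014, edgeR), and by 3.25-fold with total-count scaling (adjusted p = 0.007, edgeR). The call was lost in each of the 3 fits without an NK cell library, at an adjusted p of 0.058, 0.078 and 0.083 (edgeR), and in no other fit, where it was at most 0.029. Within the CD8+ T cells, Tapbp and H2-D1 ranked the libraries as the class II sum did. H2-K1, B2m, Tap1, Tap2, Psmb8, Psmb9, Psmb10 and Nlrc5 did not. With so few libraries such a match can easily arise by chance, and no share of matches was taken over all genes. The part of other cells in the levels of Tapbp and H2-D1 was not tested. CD8+ T cell library 2 had a class II sum below that of each NK cell library and a B cell sum above that of each NK cell library, and library 3 had a B cell sum within the NK cell range and a class II sum above it.

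PSMB8, PSMB9 and PSMB10 are the catalytic subunits of the immunoproteasome and take the places of PSMB5, PSMB6 and PSMB7 in the constitutive proteasome. Psmb8 had 19817, 22144 and 27271 normalised counts in CD8+ T cells against 19954, 19216 and 23271 in NK cells and overlapped (log2 fold change -0.15, SE 0.18, adjusted p = 0.619, edgeR), although with total-count scaling the CD8+ T cell libraries were all higher (-0.50, SE 0.18, adjusted p = 0.104, edgeR). Psmb9 had 2591, 1700 and 1135 in CD8+ T cells against 1687, 3683 and 3228 in NK cells, with NK cell library 1 inside the CD8+ T cell range (0.66, SE 0.44, adjusted p = 0.350, edgeR). Psmb10 had 16194, 14113 and 12327 in CD8+ T cells against 18931, 20188 and 17923 in NK cells, apart on this scale (0.42, SE 0.17, adjusted p = 0.144, edgeR) and overlapping with total-count scaling (0.07, SE 0.17). Psmb9 was the least abundant of the 3 in every library.

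Each immunoproteasome subunit was then set against its constitutive counterpart within a library, as its share of the summed RPKM of the pair. Psmb8 made up 91.5, 83.8 and 89.5% of the pair with Psmb5 in CD8+ T cells against 81.6, 81.1 and 85.2% in NK cells. The ranges overlapped and the means differed by -5.62 percentage points (two-sided exact permutation test, p = 0.2, adjusted p = 0.3 over the 3 pairs). Psmb9 made up 7.26, 4.60 and 2.85% of the pair with Psmb6 in CD8+ T cells against 6.16, 12.0 and 11.1% in NK cells, so that Psmb6 was the main transcript of this pair in every library (difference 4.87 points, exact permutation test, p = 0.2, adjusted p = 0.3). Psmb10 made up 99.8% ± 0.0505 (SD, n = 3) of the pair with Psmb7 in CD8+ T cells and 99.7% ± 0.179 (SD, n = 3) in NK cells (exact permutation test, p = 0.6, adjusted p = 0.6). With 3 libraries against 3 the smallest possible p is 0.1, so none of these tests could pass a threshold of 0.05. Psmb7 had raw counts of 20 to 87 only, and 34.9% of its exonic bases overlap Nek6, while Psmb5 shared 54.1% of its 50-base windows with other transcripts, so the levels of Psmb5 and Psmb7 are uncertain. With only the unshared windows as length, an alternative chosen after seeing the data, the mean share of Psmb8 was 79.2% in CD8+ T cells against 70.6% in NK cells.

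**Figure D3:**
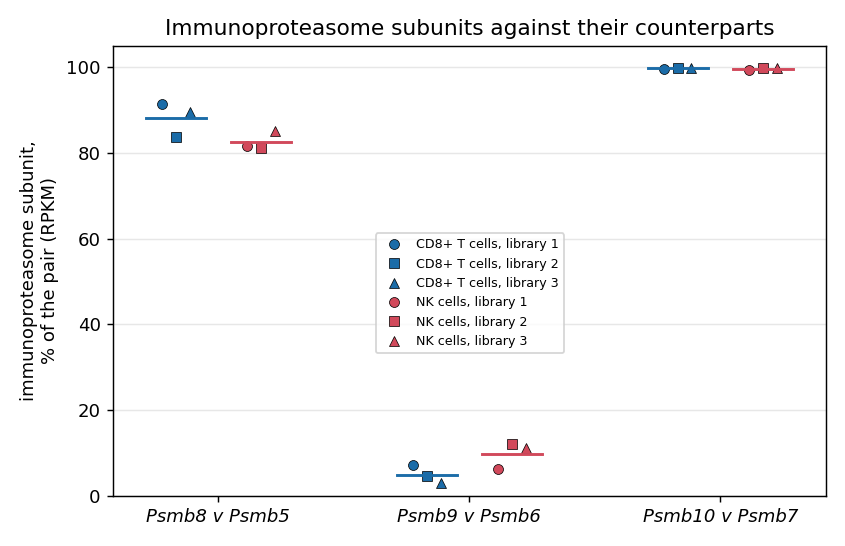
Share of each immunoproteasome subunit in the summed RPKM of the pair with its constitutive counterpart, in percent on a linear axis and with exon lengths, for each library of CD8+ T cells (blue) and NK cells (red) with a bar at the mean. With these lengths Psmb8 and Psmb10 make up over 81% and over 99% of their pairs in every library, while Psmb9 stays between 2.85 and 12.0%, and the cell types overlap in all 3 pairs.

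Nlrc5, the transcriptional coactivator of class I genes, had 2919, 3696 and 2261 normalised counts in CD8+ T cells against 1802, 1833 and 1912 in NK cells. The CD8+ T cell libraries were all higher under both scalings, but the difference was not called (log2 fold change -0.68, SE 0.29, adjusted p = 0.164; with total-count scaling -1.03, SE 0.28, adjusted p = 0.058, edgeR). CD8+ T cell library 2 had the most Nlrc5, B2m and Tap2 of its group and the least H2-K1, H2-D1, Tap1 and Tapbp. The NK cell libraries agreed closely, with a coefficient of variation of 3.07%.

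**Figure D4:**
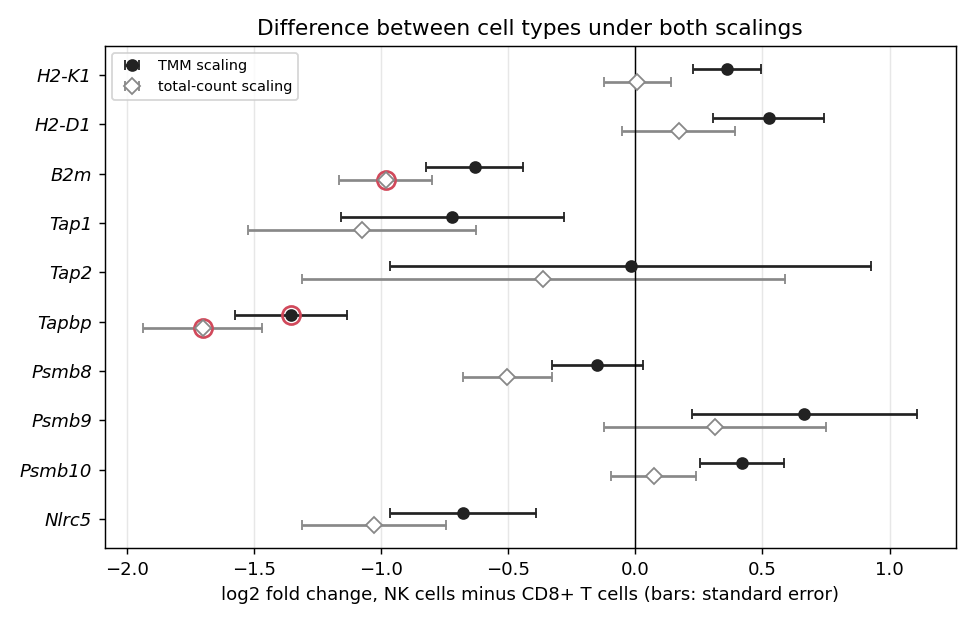
Log2 fold change of each gene, NK cells minus CD8+ T cells, with its standard error as a bar, for TMM scaling (filled circles) and total-count scaling (open diamonds), and a red ring around values with an adjusted p below 0.05. Tapbp is ringed under both scalings and B2m under total-count scaling only, and H2-K1 moves from 0.36 to 0.01 between them.

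The order of the levels per length was nearly the same in both cell types, apart from the top and from neighbours whose libraries overlapped. In CD8+ T cells B2m led with 4589 ± 938 RPKM (SD, n = 3), followed by H2-K1 with 2668 ± 325 and H2-D1 with 791 ± 213. Psmb8 (554 ± 96.9) and Psmb10 (423 ± 55.4) overlapped, Tapbp followed with 295 ± 67.4, Tap1 (73.5 ± 40.7) and Psmb9 (52.2 ± 21) overlapped, and Nlrc5 (14.2 ± 3.29) and Tap2 (4.42 ± 3.24) came last. The range of H2-D1 reached into that of Psmb8, but H2-D1 was higher within every library.

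In NK cells H2-K1 led with 2684 ± 148 RPKM (SD, n = 3) and B2m came next with 2324 ± 242, an order held in each of the 3 libraries and opposite to that in each of the CD8+ T cell libraries. H2-D1 followed with 891 ± 57.4, Psmb10 (445 ± 35.6) and Psmb8 (391 ± 30.5) overlapped, and Tapbp (90.7 ± 13.5), Psmb9 (64.8 ± 23.3) and Tap1 (34.9 ± 4.65) each overlapped with the next although their order held within every library. Nlrc5 (6.98 ± 0.0291) and Tap2 (3.43 ± 1.68) again came last. Ranked by mean RPKM among 14049 genes, B2m was number 10 in CD8+ T cells against 23 in NK cells, H2-K1 was 23 and 21, H2-D1 115 and 74, Tapbp 331 and 932, Nlrc5 4246 and 5072, and Tap2 7073 and 7038.

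Together the 10 genes took 1.23 to 1.36% of all counts in CD8+ T cells against 0.945 to 1.05% in NK cells, and these shares did not overlap. Summed as TMM-normalised counts the 10 genes overlapped, at 316012 to 344069 in CD8+ T cells against 302195 to 342038. The heavy and light chains made up 83.3 to 87.2% of the summed RPKM of the 10 genes. Replicates of the CD8+ T cells differed more than those of the NK cells for each of the 10 genes, with coefficients of variation of 11 to 73.9% in CD8+ T cells against 3.07 to 48.7% in NK cells. This was so for genes in general: among genes with a mean of 1000 to 10000 normalised counts, the median coefficient of variation was 40.4% in CD8+ T cells against 17.6% in NK cells. Tap1 (54.5%) and Psmb9 (40.6%) were above that median in CD8+ T cells, and Psmb9 (36.5%) was above it in NK cells.

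A list of 44 other genes of the class I pathway was read out of the same fit, and all 44 were tested. Of these 11 were called, 4 with NK cells above and 7 with CD8+ T cells above, beside 11.4% of all genes. With total-count scaling 14 were called, 2 with NK cells above (H2-Q6 and H2-Q7) and 12 with CD8+ T cells above. That scaling also moved the calls over all genes toward CD8+ T cells, from 877 with NK cells above and 723 below to 751 and 1112. With TMM scaling the median absolute log2 fold change of the 44 genes was 1.04 beside 1.42 over all genes.

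Of the called genes, the non-classical H2-Q6 had the largest difference, and H2-Q7, which encodes a Qa-2 antigen, went the same way. H2-Q6 had 1611, 955 and 4245 normalised counts in CD8+ T cells against 22658, 23471 and 24709 in NK cells (log2 fold change 3.38, SE 0.57, adjusted p = 0.015, edgeR). H2-Q7, whose start window is printed above, had 7069, 8909 and 9224 in CD8+ T cells against 28782, 26248 and 33626 in NK cells (1.81, SE 0.18, adjusted p = 0.002, edgeR). The call of H2-Q6 was lost in each of the 3 fits without an NK cell library (adjusted p = 0.060, 0.060 and 0.064, edgeR) and in no other fit, and its log2 fold change was 4.21 without CD8+ T cell library 3. All NK cell libraries were above all CD8+ T cell libraries for both, under both scalings. The pair share 35.0 and 34.9% of their 50-base windows with other genes, mostly of the H2 family, so the split of reads between them is uncertain. Summed in RPKM, H2-Q6 and H2-Q7 came to 0.060, 0.082 and 0.081 of the classical heavy chains in CD8+ T cells against 0.275, 0.233 and 0.279 in NK cells. The windows before H2-Q6 and H2-Q7 are identical at 254 of 261 aligned columns (97.3%). Of the other 9 non-classical genes none was called with TMM scaling and all libraries, 3 of them being at an unadjusted p below 0.05. Of these 3, H2-Q4 had NK cells above (log2 fold change 5.06, SE 1.31). H2-M3 (-1.28, SE 0.33) and Cd1d1 (-1.87, SE 0.56) went the other way. For both, each CD8+ T cell library lay above each NK cell library under both scalings. H2-M3 and Cd1d1 passed the threshold with total-count scaling (adjusted p = 0.028 and 0.046, edgeR). DESeq2 called H2-Q4, H2-M3, Cd1d1 and H2-Q10.

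The genes of the proteasome moved in both directions. PSME1 and PSME2 are the subunits of PA28, a cap that opens the proteasome. Psme1 had 14820, 8890 and 23376 normalised counts in CD8+ T cells against 37374, 43179 and 43725 in NK cells (log2 fold change 1.40, SE 0.34, adjusted p = 0.049, edgeR). Psme2 went the other way, with 6481, 8390 and 6889 in CD8+ T cells against 2265, 1429 and 1804 in NK cells (-1.98, SE 0.26, adjusted p = 0.006, edgeR). The ratio of Psme1 to Psme2 was thus 0.930 to 2.98 in CD8+ T cells against 14.5 to 26.5 in NK cells. Psme2 shares 55.6% of its windows with Psme2b and Gm7928, so its level may be undercounted, and the call of Psme1 was lost with total-count scaling, without CD8+ T cell library 1 and without each NK cell library (edgeR).

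Among the 11 other subunits of the 20S core, which is the barrel of the proteasome, Psma2, Psma3, Psmb1, Psmb2 and Psmb3 were called higher in CD8+ T cells and Psmb4 higher in NK cells. The log2 fold changes were -2.03 for Psma3, -1.47 for Psma2, -1.46 for Psmb3, -1.03 for Psmb1 and -0.95 for Psmb2, against 1.18 for Psmb4. Psmb1 was closest to the threshold and lost its call in 7 of 10 alternatives. Psma2, Psmb2, Psmb3 and Psmb4 lost theirs without each of the NK cell libraries, and Psmb4 also with total-count scaling (adjusted p = 0.065, edgeR). None of the constitutive catalytic subunits Psmb5, Psmb6 and Psmb7 was called by DESeq2 or by edgeR with TMM scaling. Psmb6 alone was at an unadjusted p below 0.05 in the TMM fit (log2 fold change -0.45, SE 0.14). It was called with total-count scaling (adjusted p = 0.017, edgeR). Of the genes for trimming and loading of peptides, which are Erap1, Tapbpl, Calr, Canx and Pdia3, none was called by edgeR with all libraries. Erap1 (-1.56, SE 0.54) and Calr (1.95, SE 0.59) were at an unadjusted p below 0.05, and DESeq2 called both of these. Calr was also called by edgeR without CD8+ T cell library 1.

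Among the genes of transcriptional control, Irf1 and Irf2, factors that bind interferon elements, had log2 fold changes of 0.81 (SE 0.30) and 1.05 (SE 0.39). Both were called by DESeq2 but not by edgeR with all libraries, while edgeR called Irf2 without CD8+ T cell library 3. The NK cell libraries were above for both, but overlapped with the CD8+ T cell libraries for Irf1 with total-count scaling (log2 fold change 0.46). Nfyb, a subunit of the factor on CCAAT boxes, had a log2 fold change of -0.71 (SE 0.27) with CD8+ T cells above under both scalings, and was called by DESeq2 and with total-count scaling (adjusted p = 0.045, edgeR) but not with TMM.

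Some genes of the list were close to absent in a library and present in another. Fewer genes in general had a count in CD8+ T cell libraries, 12893 to 14042 against 17224 to 17373 in NK cell libraries. The part of this in the low counts below was not tested. In CD8+ T cells Rfx5, part of the RFX complex on class I and class II promoters, had raw counts of 0, 32 and 1, against 152, 57 and 92 in NK cells, and overlapped with total-count scaling. Mr1, which presents vitamin metabolites, had 0, 82 and 854 in CD8+ T cells against 699, 778 and 1239 in NK cells. H2-T24 had 413, 1 and 125 in CD8+ T cells against 626, 520 and 302 in NK cells, and so fell below detection in CD8+ T cell library 2 alone. H2-Q4 had 8, 3 and 6 in CD8+ T cells against 124, 260 and 353 in NK cells. Ciita, the class II coactivator and a relative of Nlrc5, had 0 in each CD8+ T cell library and 0, 1 and 333 in NK cells, and Nfya, a further subunit of that factor on CCAAT boxes, had 0, 3 and 0 and 100, 6 and 93. Counts of 3 or fewer were treated as below detection, a floor for counting error alone. None of the 10 genes was at such a level in any library.

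**Figure D5:**
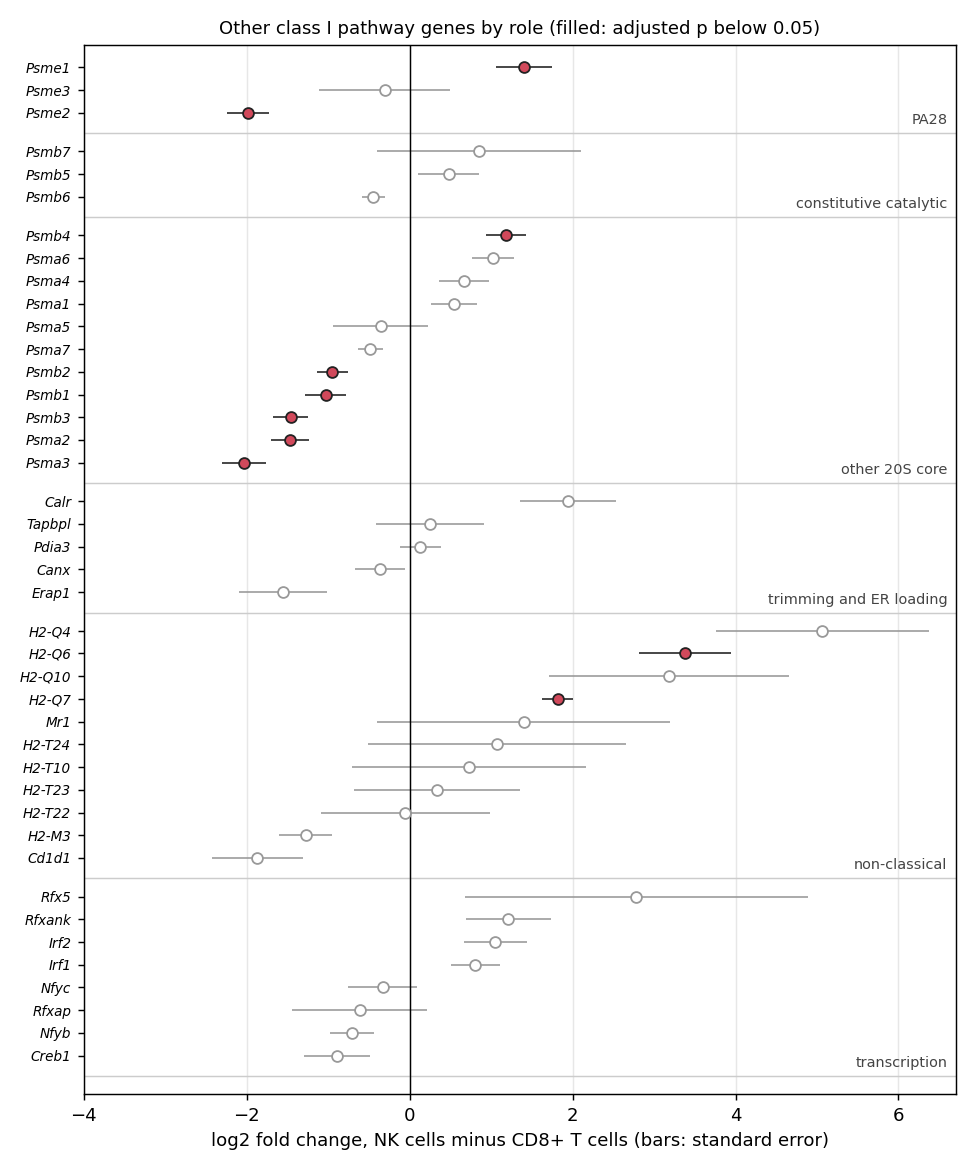
Log2 fold change, NK cells minus CD8+ T cells, with its standard error as a bar, for 41 of the 44 other pathway genes ordered by role, red where the adjusted p was below 0.05. Nfya and Ciita are left out because their counts were at most 3 in every CD8+ T cell library, and a further gene is not reported; H2-Q6, H2-Q7, Psme1 and Psmb4 are red on the NK side and 6 genes on the CD8+ T cell side.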

How the data were processed

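NK cells and CD8+ T cells sorted from Tyk2-/- spleens were profiled by RNA-seq after amplification from small amounts of RNA. The authors trimmed 50-base single-end reads (Trimmomatic 0.32), aligned them to mm10 (STAR 2.7.1) and counted uniquely aligned reads in exons of an Ensembl release 93 annotation of GRCm38. The deposited values are raw counts per gene. Of 104 columns of values 6 were used and 98 were not, among them 3 columns of wild-type CD8+ T cells against 2 such samples. Columns were tied to groups, not samples, and libraries 1 to 3 are names only. Counts were fitted with edgeR 4.0.16 in R 4.3.3 (TMM over all genes, mean normalised count of at least 10, robust quasi-likelihood test, Benjamini-Hochberg). The test was also run on simulated counts in which both cell types had the same spread for a gene, unlike these data. That run could not check the effect of unequal spread. Normalised counts are scaled to the mean effective library size. RPKM used exon lengths of GENCODE M21 (GRCm38), which named 54079 of 54232 gene IDs. Shares were tested by exact permutation with scipy 1.17.1. The genes and lists were chosen with earlier results of these data known. Named were Tyk2, the 10 genes, the constitutive counterparts, list genes called or with a library at 3 counts or fewer and another at 100 or more, and the markers; other list genes were named after their values were seen. Alternatives were RLE factors, DESeq2 1.42.0, no filter, a minimum log2 fold change, other lengths and scalings and leaving out each library. The result of a gene in the list of other pathway genes is not reported here.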

Additional observations from a re-analysis of the deposited data

How the results depend on the processing

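No paired analysis was possible because the samples of NK and CD8+ T cells share no replicate number, and the counts are not numbered as the samples are. Over all genes, DESeq2's Wald test called 3745 (2160 with NK cells above, 1585 below) against 1600 with edgeR (877 and 723), and leaving out each library gave 476 to 1946, the lowest counts being those without an NK cell library (482, 485 and 476). With total-count scaling 1863 were called, and the split changed to 751 with NK cells above and 1112 below. Of the 10 genes, 2 were called with total-count scaling (Tapbp and B2m) and 0 to 1 with a library left out. Of the 44 other pathway genes, DESeq2 called 21 (10 and 11), and 3 to 13 were called with a library left out, namely 3, 4 and 3 without NK cell libraries 1 to 3. Psma3, H2-Q7 and Psme2 kept their call in each of these fits. The log2 fold change of Tap2 (-0.02) turned to 0.0308 with RLE factors and 0.0435 with DESeq2 and ranged from -0.50 to 0.61 with a library left out. The difference in the Psmb10 share (-0.08 points) ranged from -0.141 to 0.0216 with a library left out. The summed RPKM of the 10 genes, 9465 in CD8+ T cells against 6936 in NK cells, was 10133 and 7418 with windows not shared with other genes as length, which was chosen after seeing the data, and 8385 and 7836 with TMM library sizes. The causes of these changes were not tested. The planned length from windows placed once in the genome was not run, and neither were comparisons with wild-type cells.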
